A study of Homo sapiens with 8 samples.

Results

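The VEGF, neuropilin and angiopoietin genes described here are 10 genes through which podocytes and the neighbouring endothelium signal to each other: the ligands VEGFA, VEGFB, VEGFC and PGF, the receptors FLT1 and KDR, the co-receptors NRP1 and NRP2, and the secreted factors ANGPT1 and ANGPTL4. They were chosen by name, and each of the 10 was found as a locus of its own among the 29004 loci of the gene table. The data came from a stable line of AB8/13 cells, an immortalized human podocyte line, that carried a doxycycline-inducible LATS2 wild-type construct delivered by lentivirus. Doxycycline at 125 ng/mL was given for 8 h to 4 samples (LATS2 OE), and 4 samples of the same line were left untreated. All samples grew on plastic at the same temperature. Doxycycline was given to the LATS2 OE samples only, so effects of the drug and of the construct cannot be told apart. The authors deposited FPKM values, which are fragment counts scaled to transcript length and to library size, as 1 pooled value per group and gene, so no spread between samples, standard error or p-value stands behind any ratio given here. The labels number the samples of each group without saying that they were separate cultures.

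In the glomerulus, podocytes make VEGFA, which acts across the basement membrane on the tyrosine kinase receptor KDR of the endothelium, and both loss and excess of podocyte VEGFA damage the filter in mice. VEGFB and PGF bind FLT1 but not KDR, VEGFC acts on FLT4 and KDR, and neuropilins hold VEGF ligands and class 3 semaphorins at the cell surface. ANGPT1 is the activating ligand of the endothelial receptor TEK, while ANGPTL4, despite its name, is best known as a secreted inhibitor of lipoprotein lipase.

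After 8 h of LATS2 induction, PGF had the highest ratio at 3.13-fold, though it stayed below 1 FPKM, and ANGPTL4 was 1.86-fold higher in LATS2 OE cells. VEGFA and NRP2 were 1.27-fold and 1.21-fold higher, VEGFC was 1.16-fold higher, and VEGFB and NRP1 were nearly level (1.05-fold and 1.04-fold). Transcripts of FLT1, KDR and ANGPT1 were close to 0 in both groups. The ratios of 9 genes could be formed, and all 9 lay above 1. KDR, listed at 0 in LATS2 OE cells, has no ratio. These ratios share the same pooled libraries. A ratio above 1 was found at 48.5% of named loci with both values at 1 FPKM or more, the level of 6 of the 9 genes. The share was 60.7% at the level of PGF and 57.7% at that of FLT1 and ANGPT1.

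LATS2 itself had 53.1 FPKM in LATS2 OE cells against 2.64 FPKM in untreated cells, and the digits allow 531 FPKM in LATS2 OE cells against 26.4 FPKM in untreated cells as well. Its ratio was 20.1-fold (4.33 on the log2 scale). Among podocyte markers, 5 of 14 stood at 1 FPKM or more in at least 1 group, with a median log2 ratio of -0.07. PODXL, which encodes the surface sialomucin podocalyxin, had a log2 ratio of 0.29, while the other 4 ran from -0.16 to -0.00069. The slit diaphragm gene NPHS1, a defining marker chosen for display outside the naming rule, had 0.00616 FPKM in LATS2 OE cells and 0.00875 FPKM in untreated cells. This defining marker of mature podocytes was thus nearly absent. Of 13 endothelial markers, 10 stood below 1 FPKM in both groups, with summed levels of 0.484 FPKM in LATS2 OE cells and 0.437 FPKM in untreated cells. The other 3 were EGFL7 and ROBO4, named here after their values were seen, and SOX17. SOX17, a transcription factor of arterial endothelium, had a log2 ratio of -0.67, while EGFL7 and ROBO4 both stood at 0.06. In RNA of whole cultures, a change in the number of expressing cells and a change per cell cannot be told apart.

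Promoter sequences are shown for PGF and ANGPTL4, the genes with the highest ratios, to show the sequence next to the annotated starts of the transcripts that differed most. Each is the stretch of 250 bases before a start site in the RefSeq table of promoter windows, matched without mismatch to hg19 and written 5′ to 3′ along the transcribed strand. Capitals mark the letters of 4 short motifs on either strand. Among them are ACGTG (a form of the core bound by HIF factors) and GGAATG (the core bound by TEAD factors). The others are GGGCGG (the GC box) and TATAAA (the TATA box). GCGTG, another form of the HIF core, was not searched. No motif of this set is contained in another.
ANGPTL4, chr19:8428789-8429038, plus strand: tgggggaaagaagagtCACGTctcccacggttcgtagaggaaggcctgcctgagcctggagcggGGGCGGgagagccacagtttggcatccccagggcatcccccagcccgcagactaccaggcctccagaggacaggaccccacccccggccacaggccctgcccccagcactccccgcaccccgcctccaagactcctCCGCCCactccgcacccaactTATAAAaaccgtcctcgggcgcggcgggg
PGF, chr14:75422468-75422717, minus strand: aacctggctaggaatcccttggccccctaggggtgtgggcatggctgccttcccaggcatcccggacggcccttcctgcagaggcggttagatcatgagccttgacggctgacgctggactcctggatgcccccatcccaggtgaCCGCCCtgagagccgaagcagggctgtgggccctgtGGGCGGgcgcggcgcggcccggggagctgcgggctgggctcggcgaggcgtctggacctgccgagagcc
The PGF stretch ends at the outer edge of the PGF locus in the gene table, and the ANGPTL4 start site lies 28 bases inside its locus. PGF has a further RefSeq start within its locus, whose window is not printed. Windows of 300 bases, from 250 before to 50 after the start, were held for 7 of the 10 genes (PGF, ANGPTL4, NRP2, VEGFB, VEGFC, FLT1 and KDR), and not for VEGFA, NRP1 and ANGPT1. The ACGTG form of the HIF core was present in ANGPTL4 alone among these 7, against 21.4% of 35116 windows of all genes. The unprinted PGF window holds the form that was not searched. The TEAD core was present in none of the 7, against 14.0% of all windows. The GC box was present in all 7, against 45.0% of all windows, and the TATA box in ANGPTL4 and FLT1, against 11.5%. A gene was counted if any of its windows held the motif, while the percentages are of single windows. These are matches of letters in a short window and say nothing about binding.

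Of the 10 genes, 6 stood at 1 FPKM or more and 4 below it. For most cells of at least 1 FPKM the decimal point was lost in the deposited table. It was put back so that both group values and their ratio fit together, which settles the ratio but leaves several levels a factor of 10 apart. VEGFA, VEGFB, VEGFC, NRP1, NRP2 and ANGPTL4 had at least 1 FPKM in both groups, and PGF, FLT1, KDR and ANGPT1 less than 1 FPKM in both. Among the 4 genes below 1 FPKM, whose cells were intact, the order was PGF, then ANGPT1, then FLT1, then KDR in both groups. The order among the other 6 could not be settled, and whether neighbours in either order differ beyond the spread of samples could not be judged from pooled values.

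**Figure D1:**
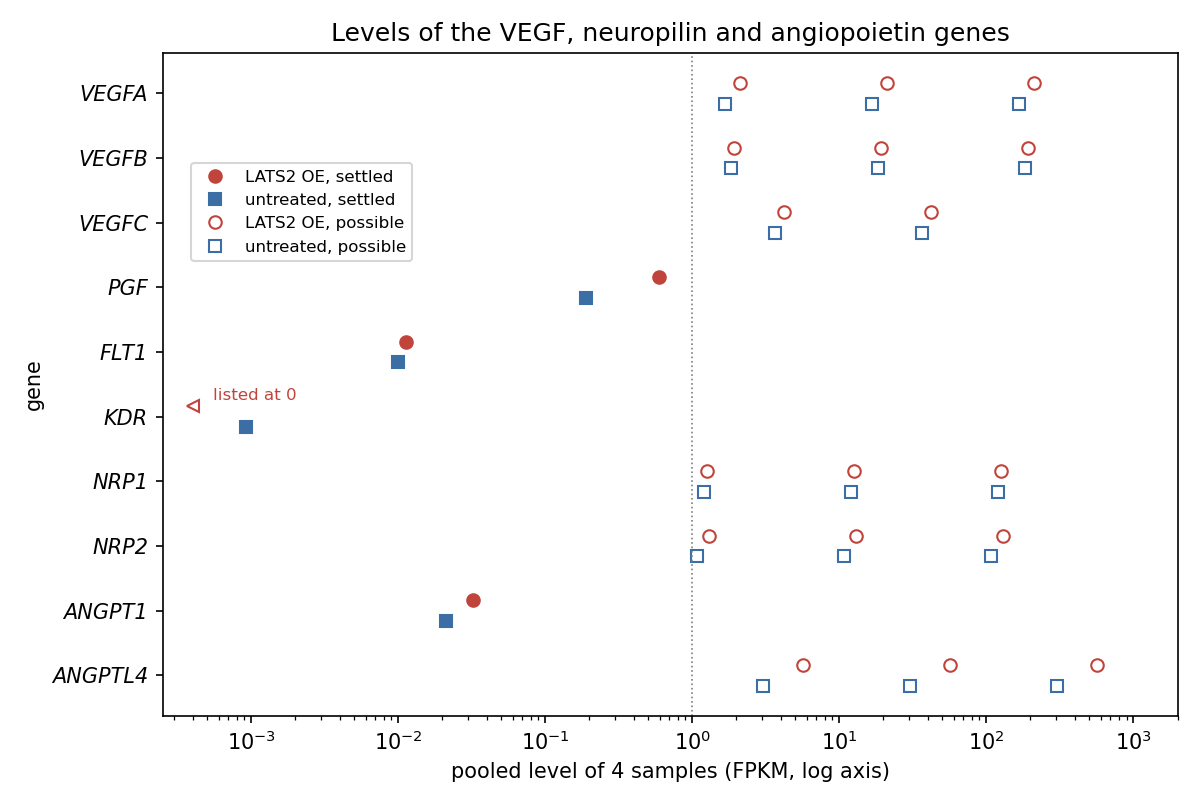
Pooled FPKM of each gene on a log axis, LATS2 OE (red circles) above untreated (blue squares). Filled symbols are settled levels, open symbols the levels that the digits allow, of which only 1 pair per gene is true, and the dotted line marks 1 FPKM. PGF, FLT1, KDR and ANGPT1 lie below the line, and KDR in LATS2 OE cells is listed at 0.

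Among the ligands, VEGFA, the main survival and permeability factor for glomerular endothelium, was higher after LATS2 induction. Its digits allow 2.12, 21.2 or 212 FPKM in LATS2 OE cells, against 1.68, 16.8 or 168 FPKM in untreated cells. The log2 ratio was 0.34, and 3.69% of 11911 named loci with both values at 1 FPKM or more had a ratio as high. The VEGFA locus runs from 43737946 to 43754223 on the plus strand of chromosome 6 of hg19 and matches the annotated protein-coding gene to within 25 bases. Its annotated exons share 188 bases with an unnamed gene of the opposite strand, and the library kit named in the labels does not mark strand, so reads of both cannot be told apart there.

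VEGFC, the ligand of lymphatic vessel growth, had a smaller ratio. It stood at 4.23 or 42.3 FPKM in LATS2 OE cells, against 3.64 or 36.4 FPKM in untreated cells, a log2 ratio of 0.22. Ratios as high were found at 7.70% of the loci of that level. VEGFB, which binds FLT1 and is tied to fatty acid uptake in mouse endothelium, was nearly level between the groups. It had 1.92, 19.2 or 192 FPKM in LATS2 OE cells and 1.83, 18.3 or 183 FPKM in untreated cells, a log2 ratio of 0.07, and 25.8% of the loci of that level had a ratio as high. The VEGFC locus lies on chromosome 4 from 177604342 to 177713899 and the VEGFB locus on chromosome 11 from 64002056 to 64006736.

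PGF, the placental growth factor, which competes with VEGFA for FLT1, showed the highest ratio of the 10 genes at a low level. It stood at 0.595 FPKM in LATS2 OE cells, against 0.190 FPKM in untreated cells, and both cells of the table are intact. The log2 ratio was 1.65. Of 2680 named loci with both values below 1 FPKM and a mean of at least 0.1 FPKM, 19 had a ratio as high (0.709%). Loci of that class varied more than abundant ones, with a median absolute log2 ratio of 0.24, against 0.07 at loci with both values at 1 FPKM or more. The PGF locus runs from 75408533 to 75422467 on the minus strand of chromosome 14, and no other annotated gene overlaps it.

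**Figure D2:**
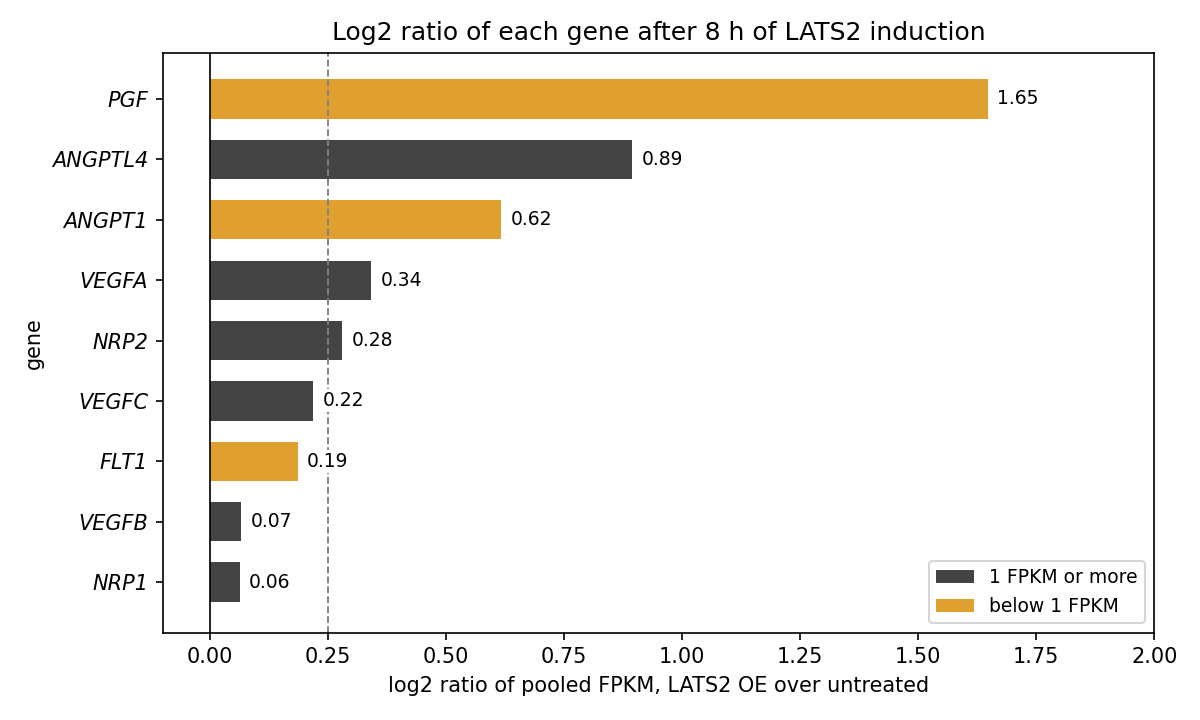
Log2 ratio of pooled FPKM, LATS2 OE over untreated, for the 9 genes with values above 0 in both groups. Dark bars are genes of at least 1 FPKM, orange bars genes below 1 FPKM, the dashed line marks 0.25, and KDR has no ratio. PGF (1.65) and ANGPTL4 (0.89) reach farthest, while VEGFB (0.07) and NRP1 (0.06) stay near 0.

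The kinase receptors were all but absent from these cells. FLT1, the high-affinity receptor that also yields a soluble trap for VEGFA and PGF, had 0.0113 FPKM in LATS2 OE cells and 0.00995 FPKM in untreated cells, a log2 ratio of 0.19. KDR, the main signalling receptor for VEGFA, was listed at 0 in LATS2 OE cells and at 0.000918 FPKM in untreated cells, so no ratio is given. FLT4, the VEGFC receptor, had 0.0312 FPKM in LATS2 OE cells and 0.0149 FPKM in untreated cells. The FLT1 locus lies on chromosome 13 from 28874483 to 29069265 and the KDR locus on chromosome 4 from 55944426 to 55991762. Ratios at such levels varied widely across the table: of 3643 named loci with a mean under 0.1 FPKM, 26.1% had an absolute log2 ratio of at least 1. The median log2 ratio of these loci was 0.14 and that of loci with both values at 1 FPKM or more -0.0040, so ratios above 0 were common among rare transcripts.

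The neuropilins, in contrast, were expressed at 1 FPKM or more. NRP2, the co-receptor for VEGFC and for the semaphorin SEMA3F, had 1.30, 13.0 or 130.1 FPKM in LATS2 OE cells, against 1.07, 10.7 or 107 FPKM in untreated cells, a log2 ratio of 0.28. A ratio as high was found at 5.22% of the loci of that level. NRP1, the co-receptor for VEGFA and SEMA3A, had 1.26, 12.6 or 126 FPKM in LATS2 OE cells and 1.21, 12.1 or 121 FPKM in untreated cells, a log2 ratio of 0.06. Ratios as high as that of NRP1 stood at 26.6% of the loci. The NRP2 locus lies on chromosome 2 from 206546988 to 206662857 and the NRP1 locus on chromosome 10 from 33466419 to 33623833. Exons of NRP2 share 147 bases and those of NRP1 561 bases with an unnamed gene of the opposite strand, whose reads cannot be told apart without strand.

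Of the angiopoietin genes, ANGPTL4 stood above 1 FPKM and was higher after LATS2 induction, while ANGPT1 was rare. ANGPTL4, which podocytes of rats with nephrotic syndrome secrete, had 5.66, 56.6 or 566 FPKM in LATS2 OE cells, against 3.04, 30.4 or 304 FPKM in untreated cells. The log2 ratio was 0.89, and 49 of the 11911 loci of that level had a ratio as high (0.411%). Its locus runs from 8429011 to 8439259 on the plus strand of chromosome 19, where no other gene shares its annotated exon bases. ANGPT1 had 0.0324 FPKM in LATS2 OE cells and 0.0211 FPKM in untreated cells. Its log2 ratio of 0.62 stood among rare loci, 27.6% of which had a ratio as high. ANGPT1 is on the minus strand of chromosome 8 from 108261710 to 108510254. Its receptor gene TEK had 0.0391 FPKM in LATS2 OE cells and 0.0385 FPKM in untreated cells, and the antagonist ANGPT2 had 0.0183 FPKM in LATS2 OE cells and 0.0124 FPKM in untreated cells. TIE1, the orphan partner of TEK, had 0.193 FPKM in LATS2 OE cells and 0.161 FPKM in untreated cells.

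Counted against the whole table, 6 of the 10 genes had at least 1 FPKM in at least 1 group. Of these 6, ANGPTL4, VEGFA and NRP2 were higher by a log2 ratio of at least 0.25 (1.19-fold), which 7.02% of 12168 named loci were, and 0 were lower by as much, which 7.08% of the loci were. At a log2 ratio of at least 0.5 (1.41-fold), only ANGPTL4 of the 6 was higher and 0 were lower, against 2.04% and 2.72% of the loci. The median log2 ratio of the 6 was 0.25 and that of all 12168 loci -0.0036. With no replicate values, these counts describe the size of differences between pooled libraries and carry no significance. With 1 added to every FPKM value, at the lowest level the digits allow, ANGPTL4 (0.72) was the only one of the 6 past 0.25, with VEGFA at 0.22 and NRP2 at 0.15.

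**Figure D3:**
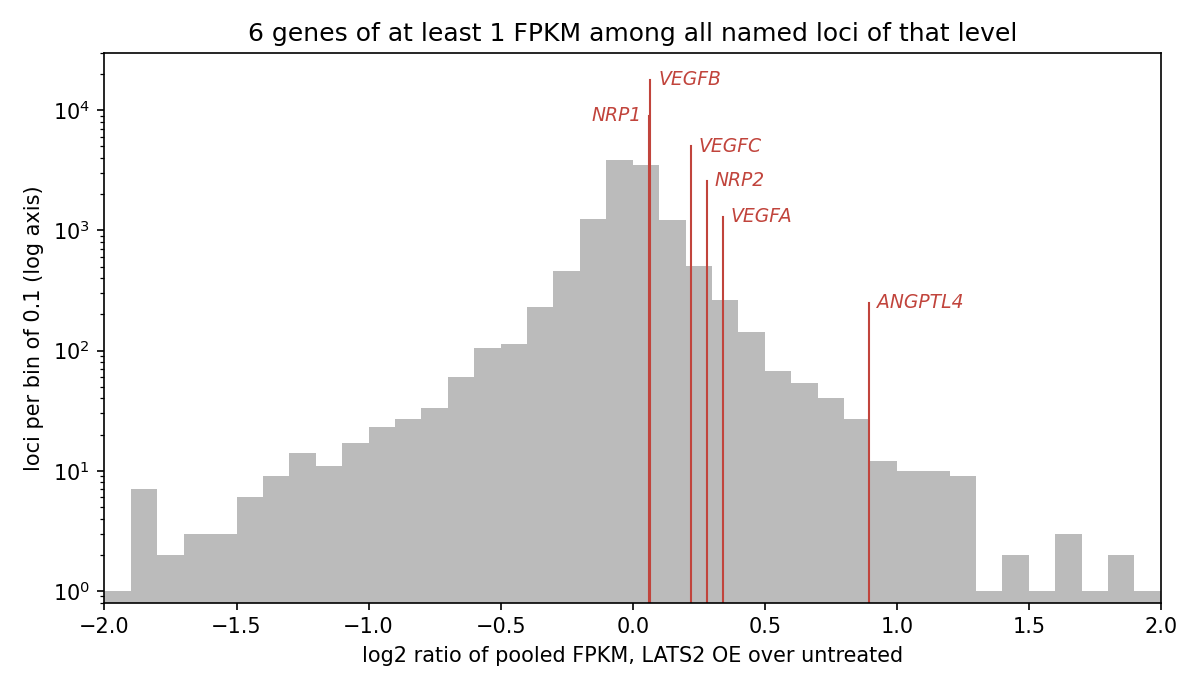
Number of named loci of at least 1 FPKM in at least 1 group per bin of 0.1 of the log2 ratio, LATS2 OE over untreated, on a log axis, with the 6 genes of that level marked by red lines of arbitrary height. The axis is drawn from -2 to 2 and leaves out 16 loci. VEGFB and NRP1 lie in the centre, and ANGPTL4 at 0.89 lies in the upper tail.

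Other members of these families were mostly rare. Of 12 further VEGF and angiopoietin family loci, 3 passed 1 FPKM. ANGPTL2, a secreted angiopoietin-like protein linked to inflammation, was 1.91-fold higher, a log2 ratio of 0.93. ANGPTL6, named after its value was seen, had a log2 ratio of 0.07. FIGF, which encodes VEGFD, shares its locus with the neighbouring gene PIR, so its log2 ratio of 0.12 cannot be assigned to either gene. Among 9 expressed semaphorin and plexin partners of the neuropilins, PLXND1 (0.29) and SEMA3F (0.26) were higher and SEMA3C (-0.29) was lower by at least 0.25. These made up 22.2% and 11.1% of the list, against 7.02% and 7.08% of all 12168 loci, and each lay close to the fold. SEMA3F is the classic ligand of NRP2 and PLXND1 a plexin receptor of class 3 semaphorins. The other 6 stayed within 0.25.

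Transcripts of genes that act downstream of VEGF receptors differed little, and the activity of their proteins was not measured. The list of VEGF receptor signalling held 27 expressed genes, including kinases, adaptors and small GTPases. Of these, 0 passed 0.25 in either direction, where 7.02% of all 12168 loci were higher and 7.08% lower. With a list of this size, 0 lies near those shares. The log2 ratios of the 27 genes ran from -0.11 to 0.24 with a median of 0.0040. Of 10 expressed genes whose products bind, release or process VEGF ligands, 1 was higher and 4 were lower by at least 0.25, against 7.02% and 7.08% of all 12168 loci, and the median log2 ratio was -0.09. The difference between these lists was not tested. CTGF, a matricellular protein that binds VEGFA and a known YAP target, had a log2 ratio of -2.34, and ADAMTS1, a protease that binds VEGFA, one of -1.04. ADAMTS3, the protease that activates VEGFC, and CCBE1, its cofactor, had log2 ratios of -0.74 and -0.32. The gene that was higher, MMP2, stood at 0.25, just past the fold. THBS1, another binding partner of VEGFA, was listed at 0 in both groups. Whether that 0 stands for a value that was not computed was not checked. MMP2 and THBS1 were named after their values were seen.

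Genes of the HIF pathway, which is known to act on VEGFA and ANGPTL4, differed in both directions. HIF1A, the oxygen-sensitive subunit of hypoxia-inducible factor, was 1.55-fold higher, a log2 ratio of 0.63, and VHL, which targets it for degradation, had a log2 ratio of 0.36. EPAS1, the paralog of HIF1A, had a log2 ratio of -0.34, and the other 4 of 7 expressed genes on this list stayed within 0.25. Of the 7, 28.6% were higher and 14.3% lower by at least 0.25, against 7.02% and 7.08% of all 12168 loci. Of 23 expressed hypoxia-induced genes, 7 were higher (30.4%, against 7.02% of all 12168 loci) and 2 were lower (8.70%, against 7.08%), with a median log2 ratio of 0.05. DDIT4, an inhibitor of mTORC1, BHLHE40, a transcriptional repressor, and PFKFB4, a regulator of glycolysis, had log2 ratios of 1.84, 0.83 and 0.75. ADM, which encodes the vasodilator adrenomedullin, had a log2 ratio of -1.48. Of 10 expressed lipid genes induced by PPAR factors, which also act on ANGPTL4, PLIN2, a lipid droplet protein, was higher at a log2 ratio of 0.50 and the other 9 stayed within 0.25. The share of higher genes on this list was 10%, near the 7.02% of all loci. The lists were written from textbook knowledge with earlier results of these data known, and their overlap with the behaviour of the 10 genes was not tested.

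**Figure D4:**
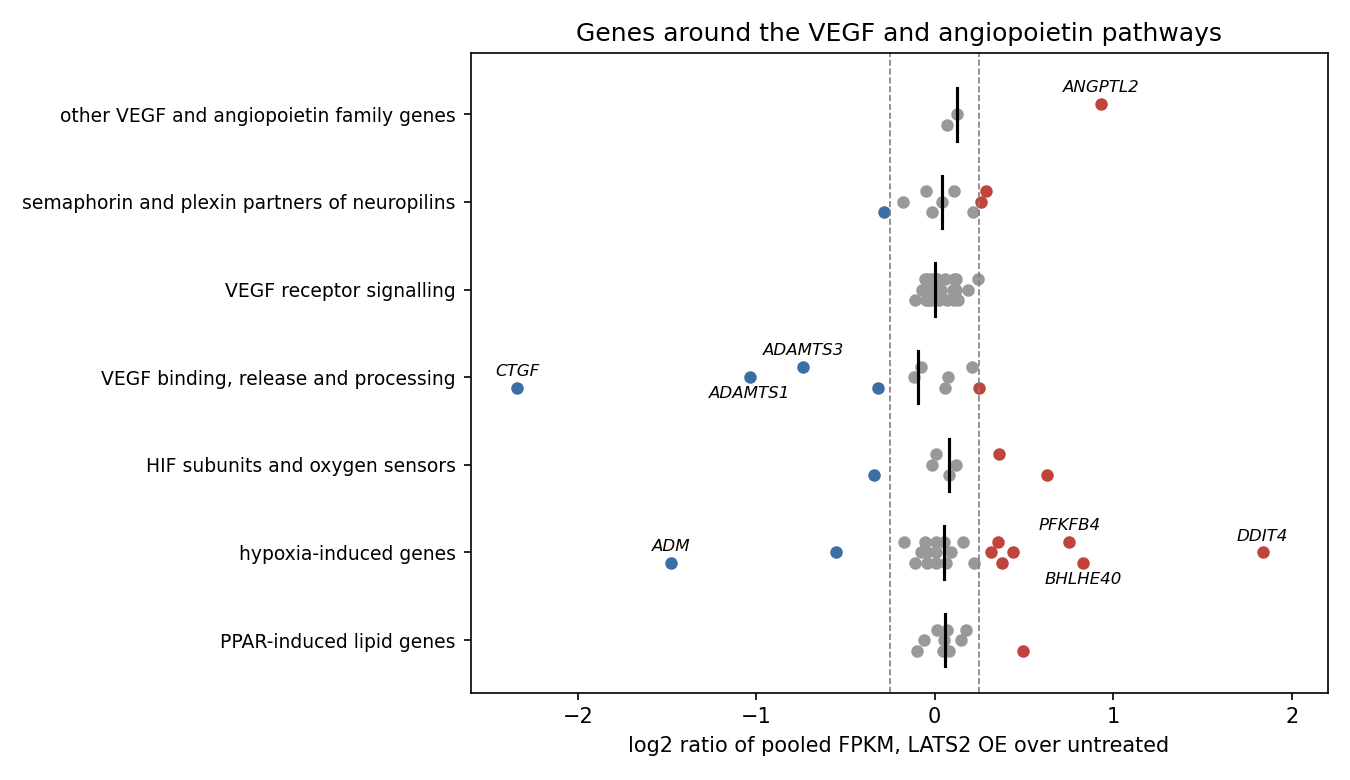
Log2 ratio of pooled FPKM, LATS2 OE over untreated, for genes of at least 1 FPKM on 7 lists around these pathways. Each point is a gene, red at 0.25 or more, blue where lower by as much and grey between, the black lines are list medians, and points are spread vertically for legibility. VEGF receptor signalling genes stay between -0.11 and 0.24, while CTGF (-2.34) and DDIT4 (1.84) lie farthest out.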

How the data were processed

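RNA sequencing of poly(A) RNA compared LATS2 OE with untreated podocytes, 4 samples each. According to the study's methods and the submitters' processing notes, single reads were trimmed (Trimmomatic, version 0.33) and mapped to hg19 (TopHat), and the authors then ran Cufflinks. Versions of both and the gene annotation were not found in the sources. The authors deposited 1 table of 29004 loci with 1 pooled FPKM value per group. The study's methods give a sequencing depth that is not broken down by sample, so the depth behind each value is not known. The table also holds the authors' log2 ratios, test statistics, p-values and q-values. None is reported here.

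In FPKM cells of at least 1 with 3 or more decimals the digits had been regrouped, which lost the decimal point. The point was put back with Python (version 3.11.15) by requiring that both FPKM cells and the ratio cell of a locus fit within 0.002 on the log2 scale, the only use made of the ratio column. This left 1 ratio for 20626 of 20636 loci above 0 in both groups, but often several possible levels, a factor of 10 apart. The step was tested only on simulated data that had lost their points by the same assumed rule. Such a test cannot show that the deposited cells followed this rule.

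Ratios were computed from the restored FPKM values, LATS2 OE over untreated, with no pseudocount. Loci with a gene name, values above 0 in both groups and at least 1 FPKM in at least 1 group were counted (12168), and a log2 ratio of at least 0.25 either way counted as past the fold. With 1 pooled value per group no test, SD or replicate check could be made. Named genes are the 10 members, LATS2, up to 4 genes past the fold with the largest ratios from each list, and FLT4, TEK, TIE1, FIGF and ANGPT2. A gene named beyond this rule is marked as such. Members, lists and the fold were chosen with earlier results of these data known. Alternatives were other pseudocounts, folds and filters, median centring, point placement from FPKM alone, and leaving out loci with several names. A limma fit, planned in case of values per sample, could not be made.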

Additional observations from a re-analysis of the deposited data

How the results depend on the processing

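With 1 pooled value per group, leaving out a sample in turn could not be run. No paired analysis was possible because the table holds no values of single samples. Of 36 values of single genes under other settings, 32 stayed on their side of 0.25, but most could not have crossed it. Point placement from FPKM alone changed none of these ratios, and centring only subtracted the median of -0.0036. A pseudocount draws a ratio towards 0, so genes below 0.25 had to stay there, and it cannot change a sign. Neither the count nor the signs therefore measure stability. Those that crossed were VEGFA (0.22) and NRP2 (0.15) with a pseudocount of 1, and ANGPT1 with a pseudocount of 0.1 (0.13) or 1 (0.02). Each was computed at the lowest level the digits allow. The number of the 10 genes past the fold and higher was 3, against 1 with a pseudocount of 1, 1 at a log2 ratio of at least 0.5, 0 at a log2 ratio of at least 1 and 5 with no filter on low values, which adds PGF and ANGPT1. Such ratios were common among low loci: 31.7% were higher by at least 0.25 at the level of PGF and 44.5% at that of ANGPT1. Over all lists, cell type markers included, 15 genes were higher and 9 lower, where 7.02% of all 12168 loci were higher and 7.08% lower. At a log2 ratio of at least 0.5, 5 were higher and 6 lower, against 2.04% and 2.72% of the loci. At a log2 ratio of at least 1, 1 was higher and 3 were lower. Of loci with both values at 1 FPKM or more, 0.865% were that far from 0 either way. With no filter, 37 were higher and 20 lower. Low loci leaned the same way: 44.5% were higher and 29.0% lower at a mean under 0.1 FPKM. Between 0.1 and 1 FPKM, 31.7% were higher and 16.4% lower. Which direction held more genes thus changed with the fold. Shares of the list genes were not computed and no count was tested. Placing decimal points from the FPKM cells alone, taking the smallest possible ratio, changed the ratio of 0 of the 9 genes and of 26 of 12168 loci, among them LATS2 (1.01). Without values per sample or read counts, the precision of these ratios could not be estimated.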

Other observations

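Of 8 lipase and lipase partner loci, 3 had at least 1 FPKM and stayed within 0.25 on the log2 scale. The genes below 1 FPKM that follow were chosen after their values were seen. LPL, the lipase that ANGPTL4 inhibits, had 0.0213 FPKM in LATS2 OE cells and 0.0123 FPKM in untreated cells. LIPG, endothelial lipase, had 0.293 FPKM in LATS2 OE cells, against 0.0787 FPKM in untreated cells, a log2 ratio of 1.90. PDK4, a PPAR target that limits glucose oxidation, had 0.253 FPKM in LATS2 OE cells and 0.130 FPKM in untreated cells, a log2 ratio of 0.95. At the level of LIPG and PDK4, 31.7% of 2680 named loci were higher by at least 0.25. An absolute log2 ratio of at least 1 was found at 3.88% of them.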
